A study of Rattus norvegicus with 35 samples.

Results

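The comparison described here set 6 wild-type rat lungs exposed to the carbon nanotube NM-403 against 6 wild-type rat lungs given vehicle. The 12 arrays, 1 per sample, were chosen by their titles, which give genotype, exposure and replicate, from 35 arrays in 6 groups. All rats were female Sprague Dawley, 12 weeks old when instillation began, and carried the genotype labelled Wild Type. NM-403 was instilled into the trachea weekly for 4 weeks at 0.25 mg per rat, and the labels do not say whether that amount was each instillation or the total. Controls received the vehicle, labelled with the surfactant Pluronic. The accessory lobe was taken 3 days after exposure, so each value is an average over all cells of that lobe. Other groups served to show where the NM-403 response differed: 6 wild-type rats given Mitsui-7 at 0.25 mg per rat, and 5 rats given NM-403 and 6 given vehicle whose genotype is labelled GMO, heterozygous for p53. These, and 6 GMO rats given Mitsui-7 that are compared with nothing here, also entered the model that estimated slide effects and spread for every comparison. The labels do not state whether the 6 samples of a group came from separate cohorts, and p-values measure the spread between these samples.

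Multi-walled carbon nanotubes are fibre-shaped particles built of nested carbon cylinders. Nanotubes that reach the alveoli are taken up by macrophages, and in rodent lungs they are known for chemokine release, an influx of leukocytes from the blood and remodelling of the matrix. NM-403 is thinner and shorter than Mitsui-7.

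Expression was read on one-colour Agilent arrays. A level below is the log2 signal of a gene's probe minus the 75th percentile of its array, so 0 stands for a bright probe and negative levels for dimmer ones, and levels of different probes are not compared. Between 66.14% and 74.64% of the spots outside the controls were well above background on the 12 arrays, and no spot was saturated. NM-403 replicate 6 stood apart: its 75th percentile before scaling was 9.592 on the log2 scale, against 10.224 to 10.845 on the other 11 arrays, and it had the lowest share of spots above background. The 12 arrays lay on 5 slides, both groups were present on every slide, and slide was a term of the model. Of the markers used to check the label, Sftpc and Sftpb of alveolar type 2 cells, Ager of type 1 cells, Scgb1a1 of club cells, Foxj1 of ciliated cells and Pecam1 of endothelium were above background on all 12 arrays. The liver gene Alb was above background on 3 arrays, while the probe for the pancreatic gene Ins1 was above it on all 12, so the flag alone does not show that a gene is expressed.

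Probes of 5 genes that the results below return to, in the comparisons with vehicle, Mitsui-7 or both, are shown because their signal is what was measured. Each is the 60-base oligonucleotide on the array, with its position in the build named in the file headers, rn4.
Spp1, chr14:6422382-6422441: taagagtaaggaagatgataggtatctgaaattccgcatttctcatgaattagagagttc
Chia, chr2:201431620-201431679: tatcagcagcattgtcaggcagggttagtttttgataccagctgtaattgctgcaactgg
Retnla, chr11:53206606-53206665: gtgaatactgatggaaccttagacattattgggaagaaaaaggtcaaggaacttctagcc
Orm1, chr5:80326525-80326584: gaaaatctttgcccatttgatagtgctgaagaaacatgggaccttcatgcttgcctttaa
S100a9, chr2:182987647-182987706: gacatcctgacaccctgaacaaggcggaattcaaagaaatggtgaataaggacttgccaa

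NM-403 changed 1858 of 24473 genes at an adjusted p under 0.05, which is 7.59% of all genes tested. Of these, 1077 were higher (4.40%) and 781 lower (3.19%). The rises were larger: 479 of the genes that rose and 122 of those that fell differed by at least 1.5-fold. All 6 NM-403 lungs lay above all 6 vehicle lungs for 430 genes (1.76%) and below them for 212 genes (0.866%). The median log2 change over all genes was -0.02. The count was 967 without NM-403 replicate 6, 1213 without vehicle replicate 1, 768 without the slide term and 745 with only the 12 arrays compared in the model. Within slides, 139 of the 151 genes examined singly had the sign of the fit on all 5 slides and the other 12 on 4. Most of these genes were named because they were called on the same arrays, so this agreement is no separate support.

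Spp1 had the largest rise. It encodes osteopontin, a secreted glycoprotein made by macrophages and epithelium. Its level in NM-403 lungs ran from 1.06 to 1.49 (median 1.30), against -4.15 to -1.97 (median -2.68) in vehicle lungs. The groups did not overlap, and the 6 NM-403 lungs lay within a much narrower band than the 6 vehicle lungs. The rise was 17.1-fold (log2 4.10 ± 0.32, adjusted p = 6.34e-09). Chia, the acidic chitinase of airway and alveolar epithelium, had the smallest adjusted p. Its level was 4.14 to 5.21 (median 4.88) in NM-403 lungs and 2.40 to 3.48 (median 2.85) in vehicle lungs, with no overlap. It rose 3.89-fold (1.96 ± 0.14, adjusted p = 1.6e-09).

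**Figure D1:**
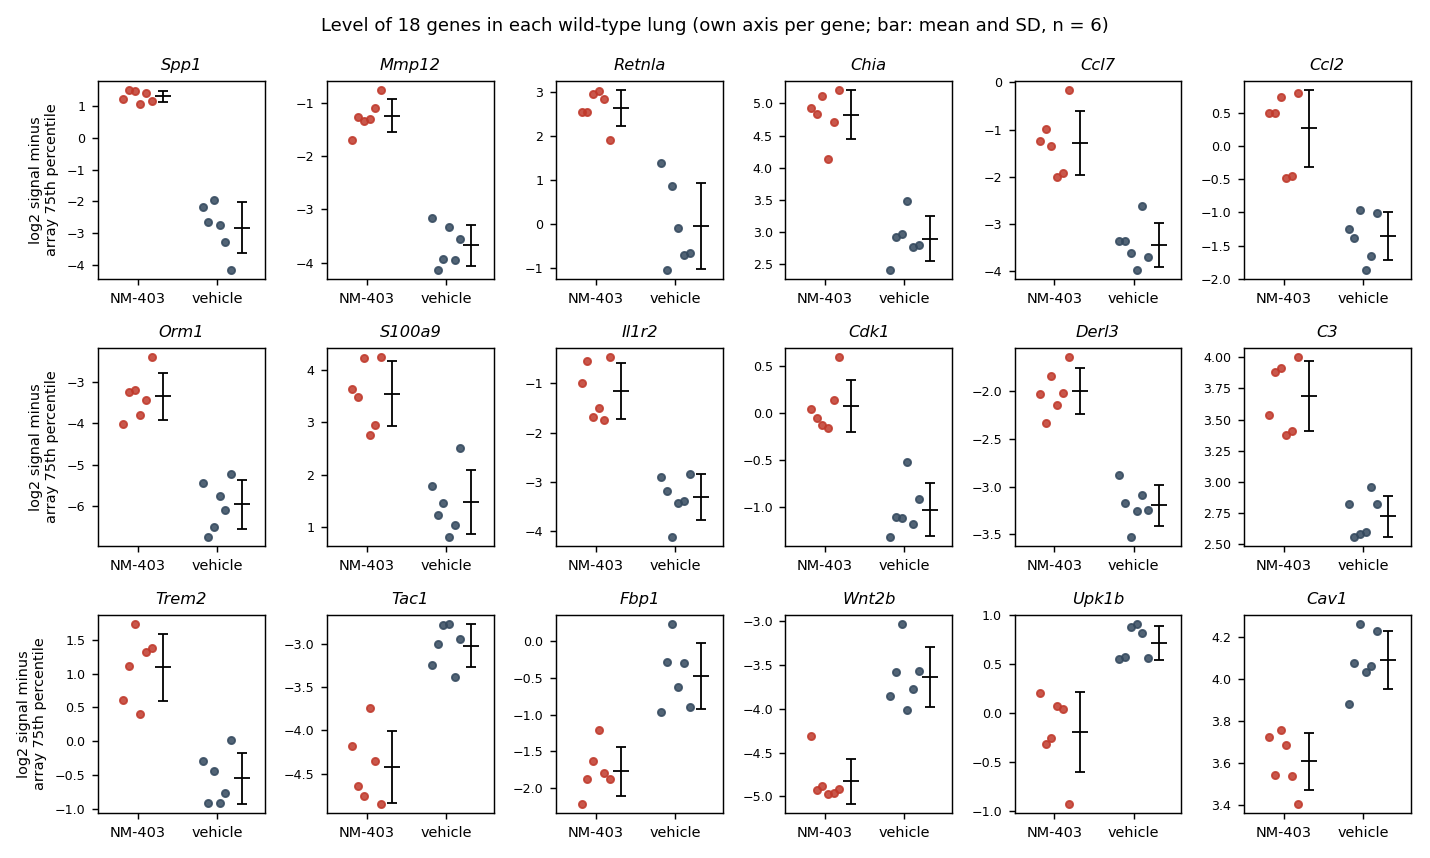
Each panel plots the level of 1 gene (log2 signal minus the 75th percentile of the array, own axis per panel) in each of the 6 NM-403 lungs (red, left) and 6 vehicle lungs (grey, right), with the group mean and SD beside the points. In all 18 panels the groups do not overlap; the first 13 genes are higher and Tac1, Fbp1, Wnt2b, Upk1b and Cav1 lower in NM-403 lungs.

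Cell division genes rose as a group. In the mitotic list, 38 of 48 measured members were higher and 0 lower, with a median log2 change of 0.94, against 4.40% of all genes called higher and an all-gene median of -0.02. The list held 36 higher members without NM-403 replicate 6. Its per-lung median, relative to the vehicle mean, was 0.72 to 1.42 in NM-403 lungs and -0.23 to 0.34 in vehicle lungs. NM-403 replicate 6 had the highest of these medians and vehicle replicate 4 the highest among controls. Within the 5 slides the difference ran from 0.50 to 1.19. Cdk1, the kinase that starts mitosis, had levels of -0.17 to 0.59 (median -0.01) in NM-403 lungs and -1.32 to -0.53 (median -1.12) in vehicle lungs. Every NM-403 lung was above every vehicle lung, and the rise was 2.16-fold (1.11 ± 0.16, adjusted p = 4.12e-05).

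Ccne1, the cyclin of entry into S phase, rose most among the mitotic list. It lay between -3.56 and -3.08 (median -3.42) in NM-403 lungs and between -5.35 and -4.44 (median -4.83) in vehicle lungs, a rise of 2.81-fold (1.49 ± 0.15, adjusted p = 5.62e-07) with no overlap. Top2a, the topoisomerase that untangles sister chromatids, rose 2.34-fold (1.23 ± 0.16), with levels of -2.99 to -2.14 against -4.13 to -3.19. Ccna2 rose 2.39-fold, Ttk 2.40-fold, Bub1b 2.46-fold and Cdca3 2.49-fold, all without overlap. Ccnb1, the mitotic cyclin, rose 2.16-fold and Mki67, the common marker of cycling cells, 1.65-fold (0.72 ± 0.12, adjusted p = 0.000259). Pbk rose 2.58-fold but was above background on only 2 of 6 vehicle arrays. The 10 members that did not pass, Aurka (0.28 ± 0.13, adjusted p = 0.213) among them, had log2 changes from 0.03 to 0.78.

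The DNA replication and repair list had 23 of 39 members higher and 0 lower (median 0.55). It held 18 to 22 higher members when single arrays were left out and 17 without the slide term. Rrm2, the regulated subunit of ribonucleotide reductase, had levels of -0.11 to 0.85 (median 0.26) in NM-403 lungs and -1.44 to -0.45 (median -0.89) in vehicle lungs. It rose 2.34-fold (1.23 ± 0.15, adjusted p = 1.32e-05) with no overlap. Mcm5 of the replicative helicase rose 2.33-fold, the chromatin assembly factor Chaf1b 2.22-fold and the exonuclease Exo1 2.12-fold (1.08 ± 0.11, adjusted p = 9.89e-07). The other Exo1 probe changed by 0.20. Cdc6, which loads the helicase, rose 3.13-fold with 3 of 6 vehicle arrays above background. Pcna, the sliding clamp, rose 1.33-fold (0.41 ± 0.08, adjusted p = 0.00273), and its call was lost without the slide term.

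Promoters are shown for the 4 mitotic genes with the smallest adjusted p that had an entry in the RefSeq promoter table (build GRCr8), because the genes of that list moved together. Each runs from 200 bases before to 20 bases after the start of the gene on the strand of the gene. Capitals mark the letters TTTGAA of the CHR element and CCAAT of the CCAAT box, searched on both strands, so that TTCAAA and ATTGG are their reverse complements. The motifs do not overlap each other in these windows.
Ccne1, chr1:99927890-99928109, minus strand: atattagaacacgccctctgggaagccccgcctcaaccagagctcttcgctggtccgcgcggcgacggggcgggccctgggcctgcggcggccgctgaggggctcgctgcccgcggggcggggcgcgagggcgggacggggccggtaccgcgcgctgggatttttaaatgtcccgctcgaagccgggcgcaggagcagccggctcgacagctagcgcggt
Top2a, chr10:84473074-84473293, minus strand: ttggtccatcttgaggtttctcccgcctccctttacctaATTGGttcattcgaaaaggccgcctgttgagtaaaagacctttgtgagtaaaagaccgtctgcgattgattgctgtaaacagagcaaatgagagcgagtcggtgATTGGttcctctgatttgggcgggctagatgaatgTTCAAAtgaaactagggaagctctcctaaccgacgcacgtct
Ect2, chr2:111966607-111966826, minus strand: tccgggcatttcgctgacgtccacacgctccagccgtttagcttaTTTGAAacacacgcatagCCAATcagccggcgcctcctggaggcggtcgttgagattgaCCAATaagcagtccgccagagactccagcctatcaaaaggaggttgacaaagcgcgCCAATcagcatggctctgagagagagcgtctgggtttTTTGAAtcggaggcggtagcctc
Cdk1, chr20:19265093-19265312, plus strand: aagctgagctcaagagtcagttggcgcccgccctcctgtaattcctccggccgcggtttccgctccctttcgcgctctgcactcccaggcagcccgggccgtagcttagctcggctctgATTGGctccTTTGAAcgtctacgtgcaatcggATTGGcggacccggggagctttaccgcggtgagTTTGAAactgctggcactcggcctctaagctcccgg

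The Top2a window held 1 CHR and 2 CCAAT letters, Ect2 2 and 3, Cdk1 2 and 2, and Ccne1 0 and 0. Over all 27457 promoters of the table (300 bases each), 18.1% held TTTGAA and 37.7% held CCAAT. Over the 13430 promoters of tested genes the shares were 13% and 37.6%. Promoters were found for 33 of the 39 replication and repair genes, and of these 1 held TTTGAA (3.03%) and 21 held CCAAT (63.6%). For the mitotic list 38 of 48 genes had an entry, too few for a share that stands for the list; of these 38, 27 held TTTGAA and 27 held CCAAT. These are matches of letters, not binding sites.

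In the list of CC and other chemokine ligands 5 of 20 members rose and 1 fell (median 0.34). Ccl7 had levels of -2.02 to -0.16 (median -1.30) in NM-403 lungs and -3.98 to -2.63 (median -3.50) in vehicle lungs, with no overlap. It rose 4.72-fold (2.24 ± 0.32, adjusted p = 4.53e-05). Ccl2, which acts on the same receptor, rose 3.11-fold (1.64 ± 0.29), with levels of -0.48 to 0.79 against -1.87 to -0.97. Ccl1 rose 5.95-fold (2.57 ± 0.47, adjusted p = 0.000989), with 3 of 6 vehicle arrays above background. Ccl3 rose 1.6-fold and Ccl17, a ligand for type 2 lymphocytes, 1.95-fold (0.96 ± 0.26, adjusted p = 0.0197). For Ccl17 only 3 NM-403 lungs lay above every vehicle lung, and the call was lost without the slide term. Ccl11, eotaxin, was the member that fell: it was -1.72 to 1.18 (median -0.18) in NM-403 lungs and 0.57 to 1.93 (median 0.97) in vehicle lungs. The fall was 2.29-fold (-1.19 ± 0.36, adjusted p = 0.0386), 4 of 6 NM-403 lungs lay below every vehicle lung, and the call was lost without the slide term and without any of 7 single arrays.

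Of the CXC ligands 2 of 14 rose. Cxcl6, a neutrophil attractant, was -4.69 to -2.67 (median -3.43) in NM-403 lungs and -7.31 to -4.48 (median -6.07) in vehicle lungs. The groups overlapped by 1 lung, and the rise was 4.52-fold (2.18 ± 0.50, adjusted p = 0.00731). Cxcl17, a chemokine of mucosal epithelium, rose 1.33-fold (0.41 ± 0.12, adjusted p = 0.027), a call lost without the slide term and without any of several single arrays. Among receptors only Cxcr2, which binds the neutrophil-attracting ligands, passed (1 of 19 members), with a 2.36-fold rise (1.24 ± 0.28, adjusted p = 0.00582).

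Of 28 inflammatory cytokines and receptors 7 rose and 0 fell (median 0.20), and 4 rose without NM-403 replicate 6. Il24, a cytokine of the IL-10 family, rose 4.68-fold (2.23 ± 0.30, adjusted p = 2.77e-05), with 4 of 6 vehicle arrays above background. The antagonists of interleukin-1 were among the members with the smallest adjusted p. Il1r2, the decoy receptor, lay between -1.74 and -0.47 (median -1.25) in NM-403 lungs and between -4.11 and -2.83 (median -3.28) in vehicle lungs. It rose 4.60-fold (2.20 ± 0.26, adjusted p = 4.39e-06). Il1rn, the receptor antagonist, was 0.76 to 1.14 (median 0.93) against -0.49 to 0.14 (median -0.18) and rose 2.19-fold (1.13 ± 0.14, adjusted p = 1.08e-05). Neither gene overlapped between groups. The agonist Il1b (0.46 ± 0.20, adjusted p = 0.178) and Tnf (0.60 ± 0.20, adjusted p = 0.0568) did not pass. Of 29 Toll-like receptor, NF-kB and inflammasome genes 2 were higher and 0 lower, near the share over all genes, and 0 were higher without NM-403 replicate 6 or vehicle replicate 1.

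Neutrophil markers were higher. Of 21 measured, 10 rose and 0 fell, with a median of 0.62; 5 rose without NM-403 replicate 6, 6 without vehicle replicate 4 and 6 without the slide term. The per-lung median, relative to the vehicle mean, was 0.32 to 1.27 in NM-403 lungs and -0.35 to 0.36 in vehicle lungs. NM-403 replicate 1 was highest, and NM-403 replicate 3 lay just below the highest vehicle lung, replicate 6. Within slides the difference in this median ran from -0.01 to 1.57. S100a9, a subunit of calprotectin, was 2.76 to 4.25 (median 3.56) in NM-403 lungs and 0.81 to 2.51 (median 1.35) in vehicle lungs. It rose 4.34-fold (2.12 ± 0.30, adjusted p = 5.53e-05) with no overlap.

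Its partner S100a8 rose 2.22-fold (1.15 ± 0.31, adjusted p = 0.0212), with 4 of 6 NM-403 lungs above every vehicle lung; the call was lost without NM-403 replicate 6 or vehicle replicate 4. Cd177, a surface glycoprotein of neutrophils, was 1.22 to 2.39 against -0.51 to 0.66 and rose 3.18-fold (1.67 ± 0.21, adjusted p = 1.7e-05). Csf3r, the receptor for granulocyte colony-stimulating factor, rose 1.98-fold (0.99 ± 0.24, adjusted p = 0.0117), and the call was lost without NM-403 replicate 6 and without the slide term. The granule protein genes Mpo and Ngp did not pass: Mpo changed by -0.07 ± 0.33 and Ngp by -0.40 ± 0.66 (adjusted p = 0.933 and 0.785). The erythroid and platelet list, a marker of blood left in the tissue, had 0 of 14 members called and a median of -0.22. In whole-lobe RNA a change in the number of cells and a change in RNA per cell cannot be told apart, here and for every cell type list below.

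The acute phase list had 8 of 18 members higher and 0 lower (median 0.33). Acute phase proteins are secreted mostly by liver and in part by lung epithelium and leukocytes during inflammation. Orm1, orosomucoid, was -4.02 to -2.41 (median -3.35) in NM-403 lungs and -6.74 to -5.21 (median -5.92) in vehicle lungs. It rose 5.93-fold (2.57 ± 0.45, adjusted p = 0.000572) and did not overlap. Lcn2, which binds bacterial siderophores, was 4.30 to 5.30 (median 4.66) against 2.62 to 4.17 (median 3.18) and rose 2.83-fold (1.5 ± 0.21, adjusted p = 3.92e-05). Hp, haptoglobin, had the smallest adjusted p of the list (0.94 ± 0.10, adjusted p = 9.89e-07), with 1.61 to 1.99 against 0.57 to 0.96.

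Hpx, which binds haem, rose 2.40-fold, the protease inhibitor A2m 2.35-fold, Itih3 2.19-fold and Lbp, which carries lipopolysaccharide, 1.55-fold. Of these, A2m overlapped by 1 lung, and the other Itih3 probe changed by only 0.06 on the log2 scale. Socs3, a feedback inhibitor of cytokine signalling, rose 1.32-fold (0.40 ± 0.10, adjusted p = 0.0148) and lost the call without the slide term, without NM-403 replicate 3 and without NM-403 replicate 6.

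Complement genes rose for 10 of 31 members and fell for 0 (median 0.38). Without the slide term 7 rose, and 7 to 13 rose when single arrays were left out. C3, the central component, was 3.38 to 4.00 (median 3.71) in NM-403 lungs and 2.56 to 2.96 (median 2.71) in vehicle lungs, and rose 1.95-fold (0.97 ± 0.18, adjusted p = 0.00115) with no overlap. Cfb of the alternative pathway rose 1.59-fold (0.67 ± 0.09, adjusted p = 3.37e-05) and C9, of the membrane attack complex, 1.91-fold. The inhibitors rose too: C4bpa 2.36-fold (1.24 ± 0.15, adjusted p = 1.24e-05), C4bpb 2.09-fold and Cfi 2.21-fold.

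**Figure D2:**
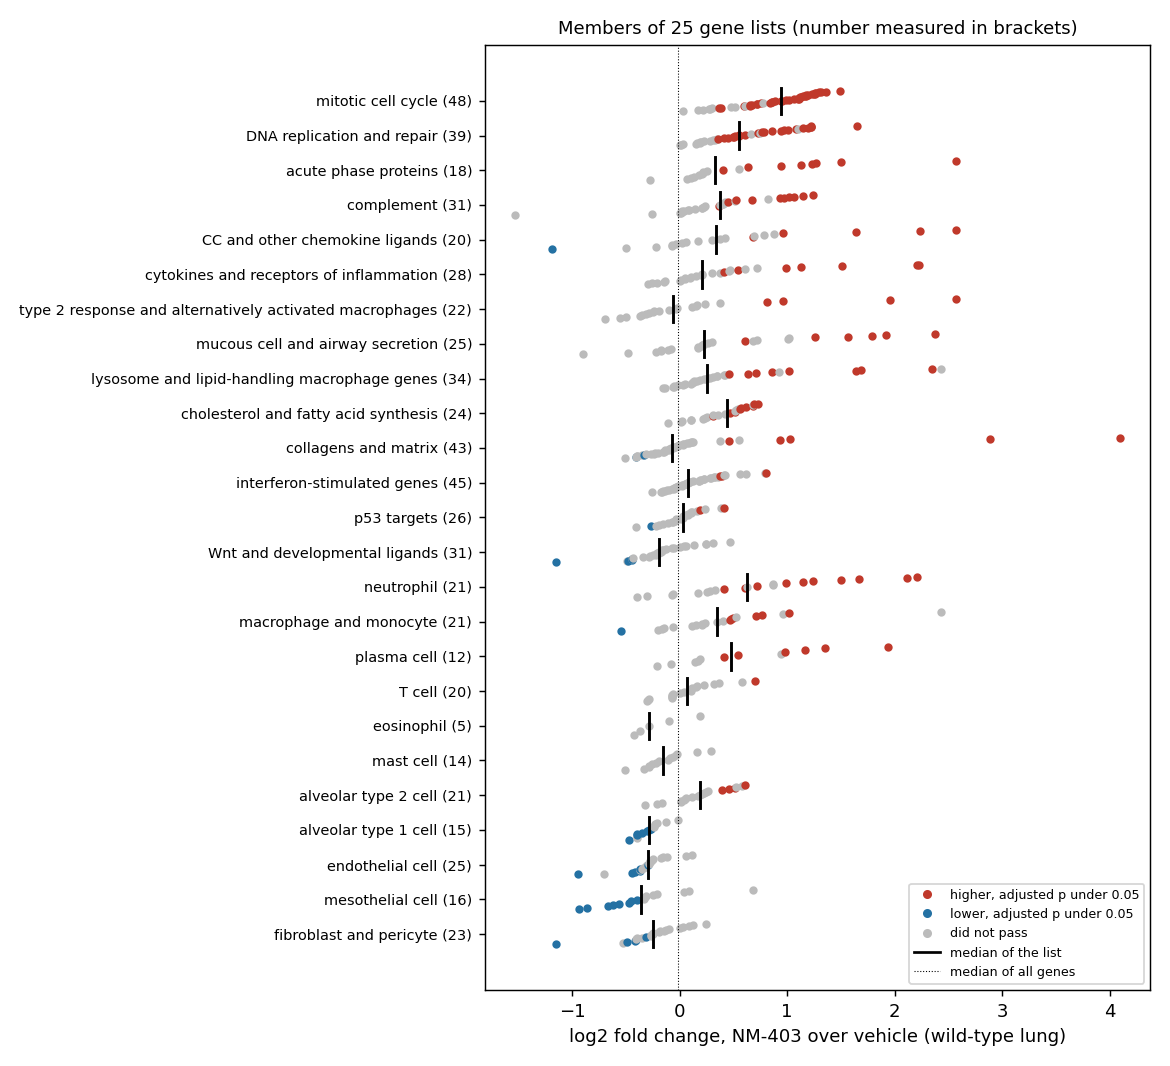
Each point is 1 measured gene of the named list (rows, number measured in brackets), placed on the horizontal axis by its log2 fold change of NM-403 over vehicle; red and blue points passed an adjusted p under 0.05 and grey ones did not. Black ticks are list medians and the dotted line is the all-gene median: the mitotic list sits farthest right (0.94), the mesothelial list farthest left (-0.36), and the type 2 list has a median of -0.06 with its 4 called members to the right.

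In the type 2 list, which holds targets of interleukin-4 and interleukin-13 and markers of alternatively activated macrophages, 4 of 22 members rose and the rest did not pass, with a median of -0.06, below that of all genes. Retnla, which epithelium and alternatively activated macrophages secrete, was 1.90 to 3.00 (median 2.69) in NM-403 lungs and -1.04 to 1.37 (median -0.38) in vehicle lungs. It rose 5.93-fold (2.57 ± 0.35, adjusted p = 3.79e-05) with no overlap, and the vehicle lungs were spread over a wider range. Chia and Ccl17, given above, and Arg1, arginase, were the other members; Arg1 rose 1.75-fold (0.81 ± 0.20, adjusted p = 0.0131). Of the eosinophil markers 0 of 5 were called (median -0.29), and 0 of 14 mast cell markers passed (median -0.15).

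Some macrophage genes rose, where 4.40% of all genes were called higher and 3.19% lower. Of 21 macrophage and monocyte markers 6 rose and 1 fell (median 0.35), and 2 rose without NM-403 replicate 6 and 3 without NM-403 replicate 3. The list of lysosomal and lipid-handling genes had 8 of 34 higher and 0 lower (median 0.26), and 7 higher without NM-403 replicate 6. Dhrs9, a retinol dehydrogenase, was -2.25 to -0.53 (median -1.21) in NM-403 lungs and -3.93 to -3.42 (median -3.62) in vehicle lungs, and rose 5.10-fold (2.35 ± 0.24, adjusted p = 5.62e-07). Trem2, a lipid-sensing receptor, was 0.40 to 1.73 (median 1.21) against -0.91 to 0.02 (median -0.61) and rose 3.12-fold (1.64 ± 0.26, adjusted p = 0.000189). The groups did not overlap for either gene.

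Ctsk, a collagen-degrading cathepsin, rose 2.03-fold (1.02 ± 0.28, adjusted p = 0.0216), a call lost without vehicle replicate 5, and Pla2g7, a phospholipase, 1.81-fold. Msr1, a scavenger receptor, rose 1.64-fold (0.71 ± 0.20, adjusted p = 0.0258) without overlap, and the call was lost without any of 4 single arrays. Marco, the scavenger receptor known for binding particles, did not pass (at least 3.01-fold higher, limma adjusted p = 0.0538). It was above background on 3 NM-403 arrays and on 0 vehicle arrays, although all 6 NM-403 values were above all 6 vehicle values. Its probe passed with a random slide block, with quantile normalization and in 3 other settings. Fcgr3a, the Fc receptor III, fell 1.46-fold (-0.55 ± 0.16, adjusted p = 0.0284), with 4 of 6 lungs below every vehicle lung and no call without the slide term.

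Among matrix-degrading enzymes, 3 of 25 genes rose and 1 fell (median 0.05). Mmp12, the macrophage elastase, was -1.69 to -0.76 (median -1.27) in NM-403 lungs and -4.14 to -3.16 (median -3.75) in vehicle lungs. It rose 5.24-fold (2.39 ± 0.27, adjusted p = 4.39e-06) with no overlap. Mmp7, matrilysin of epithelium, rose by 3.40 ± 0.69 (adjusted p = 0.00248), but only 2 of 6 vehicle arrays were above background and the groups overlapped by 1 lung. Timp1, their inhibitor, rose 1.24-fold (0.31 ± 0.10, adjusted p = 0.0458), a call lost without the slide term and in 14 other settings. Mmp24 fell 1.44-fold.

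In the list of collagens and other matrix genes 5 of 43 rose, 2 fell and the median was -0.07. Neither fall was called without NM-403 replicates 3 or 6 or vehicle replicates 2 or 4. The risers were not fibrillar collagens. Besides Spp1 they were Tnn, tenascin N, with levels of -4.80 to -3.56 (median -4.03) against -8.19 to -6.72 (median -6.82) and a rise of 7.38-fold (2.88 ± 0.40, adjusted p = 3.79e-05), then Cthrc1 (2.03-fold), Thbs2 (1.90-fold) and Col16a1 (1.37-fold). Col1a1 and Col3a1, the fibrillar collagens of scar tissue, changed by 0.13 and 0.03 and did not pass.

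In the mucous and airway secretion list 6 of 25 members rose and 0 fell (median 0.22). Muc4, a membrane mucin, rose 5.17-fold (2.37 ± 0.29, adjusted p = 1.23e-05); it was -5.54 to -3.11 (median -3.47) in NM-403 lungs and -6.90 to -5.53 (median -6.12) in vehicle lungs. The only NM-403 lung within reach of the controls was replicate 3. Muc20 rose 3.45-fold (1.79 ± 0.18, adjusted p = 5.62e-07), the anion exchanger Slc26a4, pendrin, 3.79-fold (1.92 ± 0.26), Bpifb1, a secreted airway protein, 2.97-fold (1.57 ± 0.20), and Muc1 1.53-fold. For Foxa3, a transcription factor of mucous cells, the bound on the rise was at least 1.3-fold (limma adjusted p = 0.0213), since no vehicle array was above background. Clca1, the classical goblet cell product, changed by 1.02 ± 0.49 (adjusted p = 0.216) and did not pass.

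Plasma cell genes rose for 6 of 12 members (median 0.47), 4 without NM-403 replicate 6. Jchain, which joins polymeric antibodies, was 1.63 to 2.60 (median 2.48) in NM-403 lungs and 0.42 to 1.67 (median 0.85) in vehicle lungs and rose 2.55-fold (1.35 ± 0.31, adjusted p = 0.00735), with an overlap of 2 lungs. Derl3, of the secretory quality control, was -2.33 to -1.64 (median -2.02) against -3.53 to -2.87 (median -3.21) and rose 2.24-fold (1.16 ± 0.15, adjusted p = 1.97e-05). Over its 4 probes the log2 change ran from 0.06 to 1.16. Mzb1 rose 1.98-fold and Fkbp11 1.45-fold, and the rise of Igha was at least 1.86-fold (limma adjusted p = 0.0435), with 3 NM-403 arrays and no vehicle array above background, and its call was lost in 12 of 22 other settings. B cell markers had 1 of 15 members higher and T cell markers 1 of 20, which was Icos, a costimulatory receptor (1.62-fold, adjusted p = 0.000865). In the natural killer list 0 of 16 rose and 1 fell, against 3.19% of all genes called lower. That member was Fcgr3a, which is also the macrophage and monocyte member that fell. The unfolded protein response list, some of whose members serve antibody secretion, had 4 of 22 higher (median 0.20) and 2 without the slide term.

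Dendritic cell genes rose for 4 of 14 (median 0.28), for 1 without NM-403 replicate 6 or vehicle replicate 3, and for 2 without NM-403 replicate 1, vehicle replicate 5 or vehicle replicate 6. Clec9a, of cross-presenting dendritic cells, rose 1.80-fold (0.84 ± 0.16, adjusted p = 0.00118), with 5 of 6 NM-403 lungs above every vehicle lung. Cd207, langerin, was at least 1.91-fold higher (limma adjusted p = 0.0243), and no vehicle array was above background. The remaining risers are shared with other lists. Ccl17 is also counted in the chemokine and type 2 lists. Lamp3 (0.39 ± 0.12, limma adjusted p = 0.0485) is also counted in the alveolar type 2 list.

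**Figure D3:**
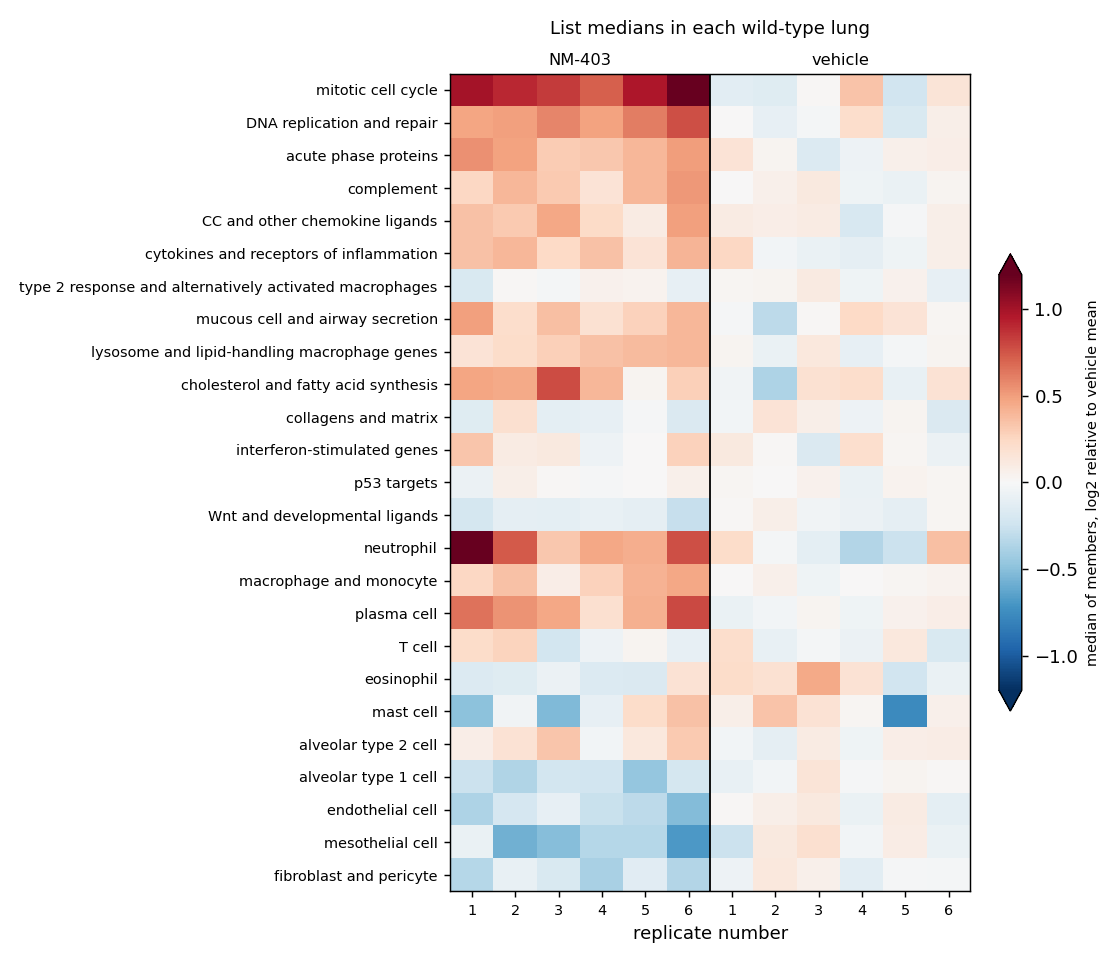
Rows are gene lists and columns the 12 arrays (6 NM-403, then 6 vehicle, by replicate number); colour gives the median of the members' log2 levels relative to the vehicle mean, from blue (lower) to red (higher). The mitotic row is 0.72 to 1.42 in NM-403 lungs, the neutrophil row 0.32 to 1.27, and the alveolar type 1 row is -0.46 to -0.21 in NM-403 lungs against -0.09 to 0.15 in vehicle lungs.

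Genes of the resident thin cells and of the lung surface were lower. Of 15 alveolar type 1 genes 7 fell and 0 rose (median -0.29); 2 fell without the slide term, 4 without vehicle replicate 1, 4 without vehicle replicate 6 and 6 without NM-403 replicate 6. Within slides the difference in the list median ran from -0.35 to -0.21. Cav1, caveolin, was 3.41 to 3.76 (median 3.61) in NM-403 lungs and 3.88 to 4.26 (median 4.07) in vehicle lungs, a fall of 1.39-fold (-0.47 ± 0.08, adjusted p = 0.000341) with no overlap. Cav2 fell 1.28-fold without overlap, and Akap5 fell 1.32-fold with an overlap of 1 lung. Ager, the defining receptor of these cells, changed by -0.02 and did not pass. Alveolar type 2 genes had 4 of 21 higher and 0 lower (median 0.19), and 2 higher without NM-403 replicate 6 or vehicle replicate 1, with Sftpc at 0.04 ± 0.10 (adjusted p = 0.856).

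Of 16 mesothelial genes, those of the pleural covering, 8 fell and 0 rose (median -0.36), and 6 fell without NM-403 replicate 6. Within slides the difference in the list median ran from -0.65 to -0.09. Upk1b, a tetraspanin, was -0.92 to 0.20 (median -0.10) in NM-403 lungs and 0.55 to 0.91 (median 0.70) in vehicle lungs. It fell 1.91-fold (-0.93 ± 0.17, adjusted p = 0.000922), and no lung overlapped. Wt1, the transcription factor that marks mesothelium, fell 1.82-fold (-0.86 ± 0.21, adjusted p = 0.0102), Bnc1 1.59-fold, Aldh1a2, which makes retinoic acid, 1.54-fold, Nkain4 1.48-fold and Upk3b 1.38-fold. Msln and Calb2, the other classical markers of these cells, changed by 0.08 and 0.04 and did not pass.

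Endothelial genes fell for 6 of 25 (median -0.29), but for 0 without NM-403 replicate 6, 1 without the slide term 2 without any one of vehicle replicates 1, 2, 3 and 6, and 3 without NM-403 replicate 2. Within slides the difference in the list median ran from -0.41 to -0.23. Tek, the angiopoietin receptor, fell 1.29-fold (-0.37 ± 0.09, adjusted p = 0.0138) and Flt1, a receptor for vascular endothelial growth factor, 1.36-fold. Ramp2, of the adrenomedullin receptor, fell 1.22-fold (-0.29 ± 0.09, adjusted p = 0.0461) without overlap, and its call was lost in 16 of 24 other settings. Of 23 fibroblast and pericyte genes 5 fell (median -0.25), and 2 fell without NM-403 replicate 6 or vehicle replicate 1, and 3 without NM-403 replicates 1 or 2 or vehicle replicates 2, 3 or 4. Smooth muscle, cardiac, erythroid and adipocyte lists had 0 members called of 12, 17, 14 and 9.

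Wnt2b, a ligand of the Wnt family, was -4.97 to -4.31 (median -4.92) in NM-403 lungs and -4.02 to -3.03 (median -3.68) in vehicle lungs. It fell 2.22-fold (-1.15 ± 0.18, adjusted p = 0.000175) with no overlap. In the list of Wnt and developmental ligands 4 of 31 fell and 0 rose (median -0.19), among them Wnt5a (1.40-fold); 2 fell without the slide term. Tac1, the precursor of substance P, was -4.85 to -3.75 (median -4.50) against -3.39 to -2.77 (median -2.97) and fell 2.68-fold (-1.42 ± 0.31, adjusted p = 0.0048). Fbp1, of gluconeogenesis, was -2.21 to -1.21 (median -1.83) against -0.96 to 0.23 (median -0.47) and fell 2.48-fold (-1.31 ± 0.21, adjusted p = 0.000242). Sytl5 had the largest fall (2.89-fold, -1.53 ± 0.28, adjusted p = 0.00111) but was above background on only 2 of 6 NM-403 arrays. Its other probe changed by -0.16, and the call was lost with the mean of both probes (adjusted p = 0.0821) and with normexp background correction (adjusted p = 0.378). Other falls without overlap were Galnt14 (2.15-fold), Scel (2.04-fold), Tesc (1.82-fold) and Pkhd1l1 (1.81-fold).

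Genes of cholesterol and fatty acid synthesis rose for 9 of 24 and fell for 0 (median 0.44), and for 4 without the slide term. Mvd, of the mevalonate pathway, was -1.22 to -0.52 (median -0.89) in NM-403 lungs and -2.02 to -1.32 (median -1.53) in vehicle lungs and rose 1.61-fold (0.69 ± 0.10, adjusted p = 4.28e-05) with no overlap. Fdps rose 1.65-fold, Sqle 1.6-fold and Fasn 1.43-fold. The other Fdps probe changed by 0.02 on the log2 scale. Per lung, the list median was 0.03 in NM-403 replicate 5 and 0.29 to 0.78 in the other 5 NM-403 lungs, against -0.37 to 0.21 in vehicle lungs.

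Of 38 antioxidant genes 7 were higher and 2 lower (median 0.08), against 4.40% of all genes called higher and 3.19% called lower. Mt3, a metallothionein, was -4.76 to -3.73 (median -4.14) in NM-403 lungs and -7.12 to -6.30 (median -6.41) in vehicle lungs and rose 4.91-fold (2.29 ± 0.34, adjusted p = 9.63e-05). Slc7a11, the cystine importer, rose 2.67-fold (1.42 ± 0.29, adjusted p = 0.00291), also without overlap. Mt2A rose 1.73-fold, Srxn1 1.62-fold and mitochondrial Sod2 1.59-fold. Gsta4 fell 1.31-fold and Gstp1 1.2-fold. Hmox1, haem oxygenase, changed by 0.45 ± 0.15 (adjusted p = 0.0549) and did not pass.

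Several pathways stayed near the background share. Interferon-stimulated genes had 3 of 45 members higher (median 0.08): Ifit3, Irf8 and Ifitm1. Of 26 targets of p53, 2 rose and 1 fell (median 0.03), without the slide term 0 were called in either direction, and 0 or 1 rose without any single array. Cdkn1a, the p53-induced inhibitor of the cell cycle, was 0.21 to 0.62 (median 0.46) in NM-403 lungs and 0.09 to 0.51 (median 0.33) in vehicle lungs (0.12 ± 0.09, adjusted p = 0.527). Mdm2, which degrades p53, changed by 0.08 ± 0.07 (adjusted p = 0.515). For both genes the groups overlapped. Xenobiotic metabolism, the circadian clock and MHC class II genes had 0 members called of 33, 19 and 12.

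The direct comparison of NM-403 with Mitsui-7 in wild-type rats asked where the responses to the 2 nanotubes differed. At 0.25 mg per rat of each, 1578 genes differed (6.45% of 24473): 371 were higher (1.52%) and 1207 lower (4.93%) with NM-403. This split depended on the scaling: 23.5% of the calls were higher with NM-403 here, against 43.7% with quantile normalization, 62.0% with array median scaling and 64.2% with the authors' values. Mitsui-7 replicate 5 stood apart, with 86.41% of its spots above background against 71.16% to 73.82% on the other Mitsui-7 arrays. Without it 1044 genes differed, 24.1% of them higher with NM-403. The nanotubes share their 6 vehicle lungs, so their changes over vehicle are given side by side and only the direct difference is tested.

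The neutrophil and acute phase lists each held more members higher than lower with NM-403. Of the 21 neutrophil markers 7 were higher with NM-403 than with Mitsui-7 and 2 lower. Of 18 acute phase genes 6 were higher and 2 lower, against 1.52% of all genes higher and 4.93% lower. The lower neutrophil markers were Mmp9 (-1.90 ± 0.34, adjusted p = 0.000509), a gelatinase, and Retnlg (-0.81 ± 0.22, adjusted p = 0.0255). The lower acute phase genes were A2m (-2.04 ± 0.22, adjusted p = 7.12e-07) and the protease inhibitor gene Serpina3n (-1.10 ± 0.22, adjusted p = 0.00237). S100a9 was 2.76 to 4.25 in NM-403 lungs, and the direct difference was 2.67 ± 0.31 on the log2 scale (6.38-fold, adjusted p = 1.83e-06). Over vehicle it changed by 2.12 with NM-403 and by -0.56 with Mitsui-7. Orm1 differed by 3.45 ± 0.45 (10.9-fold, adjusted p = 1.13e-05), with 2.57 over vehicle for NM-403 and -0.88 for Mitsui-7. It was dim with Mitsui-7, above background on 4 of 6 arrays, and Cxcl6 was above it on 5 of 6. Cxcl6 was 2.31 ± 0.50 higher with NM-403 (adjusted p = 0.00435), Il1r2 1.63 ± 0.26, S100a8 1.61 ± 0.31, Hpx 1.57 ± 0.22, Cd177 1.36 ± 0.22 and Lcn2 1.22 ± 0.21. All of these also rose over vehicle with NM-403.

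Other genes were lower with NM-403 than with Mitsui-7. Mt3 was lower by 3.29 ± 0.35 on the log2 scale (adjusted p = 5.08e-07), Spp1 by 2.24 ± 0.32 (adjusted p = 4.32e-05), Slc7a11 by 2.22 ± 0.29 and Mmp12 by 1.75 ± 0.28, although each rose over vehicle with NM-403. Clca1 averaged -3.33 in NM-403 lungs and 0.59 in Mitsui-7 lungs (difference -4.03 ± 0.49, adjusted p = 4.85e-06). Mmp3, stromelysin, and the macrophage gene Cd5l were above background on 0 NM-403 arrays and all 6 Mitsui-7 arrays, so Mitsui-7 exceeded NM-403 at least 7.39-fold for Mmp3 (limma adjusted p = 1.56e-09) and at least 14.1-fold for Cd5l (limma adjusted p = 5.6e-06). Of 14 mast cell genes 8 were lower with NM-403, and of 23 ciliated cell genes 12. For interferon-stimulated genes it was 13 of 45 and for matrix genes 15 of 43. In each of these lists 0 were higher, against 4.93% of all genes lower and 1.52% higher. List counts against Mitsui-7 were not repeated with the other scalings, which changed the split over all genes.

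Few cell division genes passed the direct test between the nanotubes. Of 48 mitotic genes 0 were higher and 4 lower with NM-403, against 1.52% and 4.93% of all genes. The median direct difference was -0.27, against -0.05 for all genes. Cdk1 differed by -0.26 ± 0.16 (adjusted p = 0.343). Chia differed by -0.07 ± 0.14 (adjusted p = 0.803), Ccl7 by -0.12 ± 0.32 (adjusted p = 0.865) and Retnla by -0.76 ± 0.36 (adjusted p = 0.214). Missing the threshold does not show that these responses were the same.

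**Figure D4:**
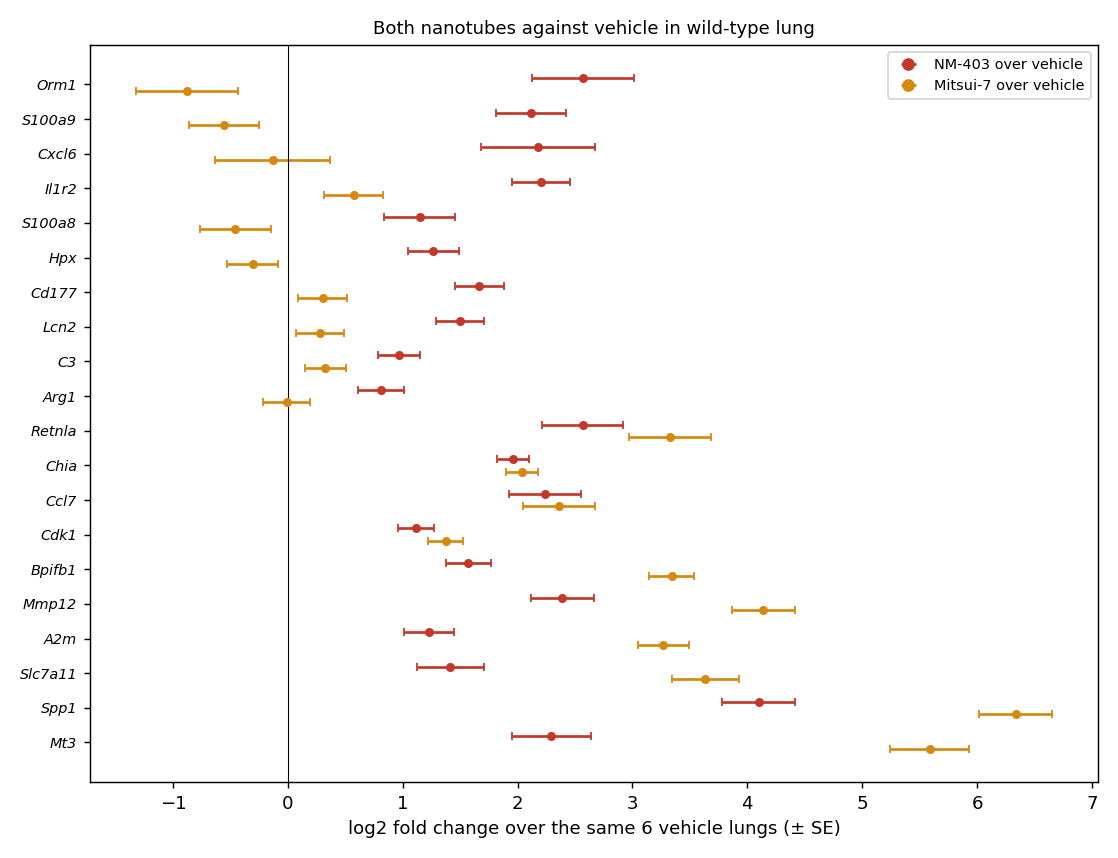
Points give the log2 fold change over the same 6 vehicle lungs for NM-403 (red, upper point of each pair) and Mitsui-7 (orange, lower point) with their standard errors, for 20 genes named in the text. Orm1, S100a9 and the genes down to Arg1 are farther right for NM-403, Retnla to Cdk1 did not pass the direct test, and Bpifb1 to Mt3 are farther right for Mitsui-7.

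In rats heterozygous for p53, NM-403 was given to other animals with controls of their own. Of the 1077 genes higher in wild-type lungs, 1057 (98.1%) were also above 0 over vehicle in the GMO rats, where 38.4% of all genes were, and 409 passed there. Of the 781 lower genes, 759 (97.2%) were below 0 in the GMO rats, where 61.6% of all genes were, and 134 passed. The median change of the higher genes was 0.54 in wild-type and 0.39 in GMO rats. For the lower genes it was -0.39 and -0.24. Both sets were chosen by their wild-type calls. Over all genes, 942 passed in GMO rats (3.85%), against 1858 in wild-type rats. The test of the difference between the genotypes' responses called 0 of 24473 genes with limma, with 935 at an unadjusted p under 0.05. The unadjusted count depended on the background correction: with normexp it was 5788, and again 0 genes were called. Missing the threshold does not show that the genotypes responded alike. Spp1 changed by 4.10 in wild-type and 4.16 in GMO rats, Retnla by 2.57 and 2.48, Chia by 1.96 and 1.74, S100a9 by 2.12 and 1.53, and Cdk1 by 1.11 and 1.04. Defb5, a beta defensin, changed by 2.5 ± 0.75 in wild-type rats (adjusted p = 0.0392, lost without the slide term and without any of 9 single arrays) and by -0.90 in GMO rats.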

How the data were processed

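The authors deposited 1 scanner file per array, made with version 12.0.1.1 of Feature Extraction according to the submitters' processing notes; its processed signal is a deposited, background-corrected intensity on a linear scale, per the file headers. They also deposited a table of log2 values, centred per probe, used as an alternative; the sources used here do not give its probe filter. Of 62976 spots, 4259 controls were left out and spots flagged as outliers (248 to 409 per array of the 12 compared) set to missing. The log2 intensity minus the 75th percentile of each array was averaged per probe, and a gene took its brightest probe. Genes well above background on at least 5 of 35 arrays and measured on 3 per group were kept, which left 24473 genes, 15369 with a symbol. All 35 arrays were fitted together in limma 3.58.1 (R 4.3.3, with version 1.17.8 of the data.table package) with group means and slide; the fit was tested on simulated data. Values after ± are standard errors, and Benjamini-Hochberg adjustment ran over all genes, with a threshold of 0.05.

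The lists (47) and the genes to be named were chosen with earlier results of these data known. Genes are named by a rule: the 20 largest rises and falls among called genes with a symbol, with every array of the higher group above background, up to 6 called members of each list per direction, Spp1, Cdkn1a, Mdm2, the first 3 measured markers of each cell type, and for the other comparisons the 10 largest per direction. Members that did not pass but are given as contrasts, such as Aurka, Il1b, Tnf, Mpo, Ngp, Clca1, Hmox1, Col1a1 and Msln, were picked after their values were seen, as were Mmp9, Retnlg and Serpina3n, which were lower with NM-403 than with Mitsui-7. Of 151 genes named, 40 had several probes, and 0 had a probe of opposite sign. The size of the change still differed between probes of some genes. For Derl3, Itih3, Exo1, Fdps and Sytl5 the smallest log2 change was 0.06, 0.06, 0.20, 0.02 and -0.16. Where no array of a group was above background, a fold is a bound, taking for each such array its lowest signal well above background, or the probe's own where that was higher. Alternatives were the slide term, the scaling, the background correction, the authors' values, the filter, the probe rule, the flags and leaving out single arrays. Some genes that the rule names are not reported here.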

Additional observations from a re-analysis of the deposited data

Results flagged for a closer look

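Single lungs stood apart from the other 5 of their group for 20 of the 302 gene and group combinations checked, by the gap to the nearest lung as a share of the group's range; chance flags about 1 in 20 groups. All values are levels. In NM-403 lungs, replicate 3 was low for Muc4 (-5.54) and Foxa3 (-8.58) and high for Gstp1 (1.53). Replicate 6, the array of lowest signal, was high for Cdca3 (-0.64) and Bub1b (-4.47), both mitotic genes. Wnt2b was high in replicate 1 (-4.31) and Tesc low in replicate 5 (-4.13).

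In vehicle lungs, replicate 3 was high for Akap5 (3.83) and Tek (3.10) and low for Mdm2 (-1.18), Ifit3 (-4.20) and Fcgr1a (0.65). Replicate 1 was low for Ucp3 (-4.08), Bub1b (-6.84) and Gabrp (-7.40). Replicate 5 was low for Tnn (-8.19) and high for Fcgr3a (-0.40). Replicate 4 was high for Ccnb1 (-4.14) and low for Calr (0.06), and replicate 2 was low for Muc1 (1.1).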

How the results depend on the processing

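For NM-403 against vehicle, the 1858 calls became 768 without the slide term (72.7% higher, against 58% with it) and 745 with only the 12 arrays compared; leaving out single arrays gave 967 (without NM-403 replicate 6) to 1880, with 1213 without vehicle replicate 1. The other settings gave 1297 (no filter) to 2066 (stricter filter). For NM-403 against Mitsui-7, the 1578 calls became 850 without the slide term, 802 with normexp background correction and 2262 with array median scaling. With single arrays left out they were 1044 (without Mitsui-7 replicate 5) to 1736. The test between genotypes gave 0 calls in every setting run. Of 151 named genes, 125 kept their call or its absence without the slide term and 97 with only the 12 arrays. Ccdc27, dim in NM-403 lungs, turned round: 0.0145 with normexp, against -1.19 as reported (log2). The cause of these changes was not tested. Same-numbered arrays of the 2 groups correlated at r = 0.171, 0.216, 0.598, 0.354, -0.076 and 0.381, and 3 of these pairs share a slide; since 1 pair was below 0.1 and no label gives a shared source, the numbers were not taken to pair the arrays; with a replicate block beside slide, 1669 genes were called against vehicle, 1485 against Mitsui-7 and 0 between genotypes. Probes near background limit what can be said of genes such as Marco, Mmp7 and Il24, and 6 arrays per group limit all small changes.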

Other observations

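Some gene groups of the airway and of metabolism are not described above. Of 23 ciliated cell genes 2 were higher with NM-403 and 0 lower (median log2 change 0.20), the axonemal genes Tekt2 (1.41-fold, adjusted p = 0.0142) and Dnah1 (1.32-fold, adjusted p = 0.0307) by limma, and 0 were higher without NM-403 replicate 6, without vehicle replicate 1 or without the slide term. Of 16 club cell genes 2 were higher (median 0.03); one was Gabrp, a subunit of the receptor for gamma-aminobutyric acid, at -4.35 to -3.42 in NM-403 lungs and -7.40 to -4.67 in vehicle lungs (2.8-fold, adjusted p = 0.00265 by limma), with no overlap. The other club cell member was Hp.

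Keratin and epithelial injury genes had 2 of 22 higher and 1 lower (median -0.07). Fatty acid oxidation genes had 1 of 27 higher and 2 lower (median 0.04), with Ucp3, a mitochondrial carrier, 2.6-fold lower (adjusted p = 0.0206 by limma). For Ucp3 the log2 difference within slides ran from -2.86 to 0.44, and 4 of 6 NM-403 lungs lay below every vehicle lung. Its call was lost in 5 of 23 other settings. Glucocorticoid-responsive genes had 1 of 13 higher (median -0.04), and neuropeptide and neural genes 0 of 16 higher and 2 lower (median -0.26).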
